A study of Mus musculus with 12 samples.

Results

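Polycomb repressive complex 2 (PRC2) is described here through the genes of 10 of its subunits, followed in mouse embryonic stem cells (mESC) with and without PROSER1 and after a short differentiation. The rule takes the genes by their known place in the complex and uses no measured value: the catalytic subunits Ezh2 and Ezh1, the core subunits Eed, Suz12 and Rbbp4, the Polycomb-like subunits Mtf2, Phf19 and Phf1, and the accessory subunits Jarid2 and Aebp2. All 10 were found by symbol among the 35976 genes of the count table, and all 10 were among the 15341 genes tested, those with a mean normalised read count of at least 10 over the 12 libraries.

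PRC2 places methyl groups on lysine 27 of histone H3, a mark of silent developmental genes. EZH2 or its paralogue EZH1 carries the methyltransferase activity, EED reads the mark and stimulates the enzyme, SUZ12 holds the complex together, and RBBP4 binds histones. Accessory subunits define alternative forms: the Polycomb-like proteins MTF2, PHF19 and PHF1 belong to PRC2.1 and bind CpG-rich DNA, whereas JARID2 and AEBP2 belong to PRC2.2. In mESC the complex keeps lineage genes silent, and cells without it have difficulty in differentiating.

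PROSER1 is a chromatin-associated protein that works with the TET enzymes of DNA demethylation. RNA-seq libraries were made from cells of 3 genotypes, WT, PROSER1 KO and the rescued KO (KO+Rescue), both as mESC in serum with LIF and inhibitors of GSK3 and MEK and at day 2, after 48 h in N2B27 medium, which lacks these inhibitors and LIF. Each of the 6 groups had 2 libraries, called replicates A and B after the columns of the deposited table. All cells came from lines derived from Tet2 fl/fl blastocysts, so the floxed Tet2 allele was shared by every group including WT. The KO was made with a guide to exon 1 of Proser1 and single-cell sorting, and the KO+Rescue line was made from KO cells by inserting a FLAG-tagged Proser1 coding sequence with PiggyBac and blasticidin selection. Each genotype therefore stands for 1 line, and an effect of the genotype and a difference between lines cannot be told apart. The labels call the replicates biological without saying how the cultures were separated, so a p-value here reflects just the variation among these libraries, which may be technical.

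The 12 libraries held between 38634668 and 66450803 reads in genes. Normalised read counts of Proser1 in replicates A and B were 889 and 550 in WT mESC, 576 and 502 in KO mESC, and 2828 and 3090 in KO+Rescue mESC. At day 2 WT had 829 and 685, KO had 872 and 1067, and the rescued line had 3041 and 2994. KO and WT did not differ by test in mESC (log2 fold change −0.38 ± 0.20 (SE), limma adjusted p = 0.215) or at day 2 (0.36 ± 0.20, adjusted p = 0.368), and a guide to an exon need not lower the RNA, so this level does not check the loss of the protein. KO+Rescue was 5.49-fold above KO in mESC and 3.13-fold above it at day 2 (limma adjusted p = 0.000222 and 0.00122). The summed level of 8 stem cell markers, Pou5f1 and Sox2 among them, ran from 162681 to 223642 normalised counts in mESC. At day 2 it ran from 52647 to 91417. That of 6 formative and neural markers ran from 7583 to 12401 in mESC and from 56916 to 94985 at day 2. Both stages thus matched their labels. The stem cell sum was lowest in WT, at 162681 to 180268 in mESC and 52647 to 70077 at day 2. KO had 207031 to 217788 and 83778 to 91417. At day 2 the formative and neural sum was also lowest in WT (56916 to 73444, against 92893 to 94985 in KO). Summed levels of 6 primitive endoderm markers were 29.5 to 78.4 in mESC and 172 to 236 at day 2. Those of 6 fibroblast markers were 354 to 409 in WT mESC, 140 to 166 in KO mESC and 99.7 to 140 in KO+Rescue mESC, with Lum at 0 in the KO and KO+Rescue mESC, and 718 to 1613 at day 2. In bulk RNA, fewer cells of a type and less RNA per cell cannot be told apart.

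Subunit genes differed widely in RNA level. Compared per kilobase of exon (all annotated exons of the gene joined), the mean normalised count over the 6 groups was 5609 for Rbbp4, 4311 for Eed, 1959 for Mtf2, 1214 for Ezh2, 977 for Suz12, 496 for Jarid2, 123 for Aebp2, 71.9 for Ezh1, 26.2 for Phf19 and 17.0 for Phf1. The core genes, Ezh2 and Mtf2 stood at the top and Phf19 and Phf1 at the bottom. The order of Mtf2 and Ezh2 depended on the length used: with the longest transcript in place of all exons, Ezh2 came to 2772 and Mtf2 to 2550 normalised counts per kilobase. Phf19 and Phf1 were measured from few reads, between 47 and 490 per library for Phf19, and their values carry a larger counting error than those of the other subunits.

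**Figure D1:**
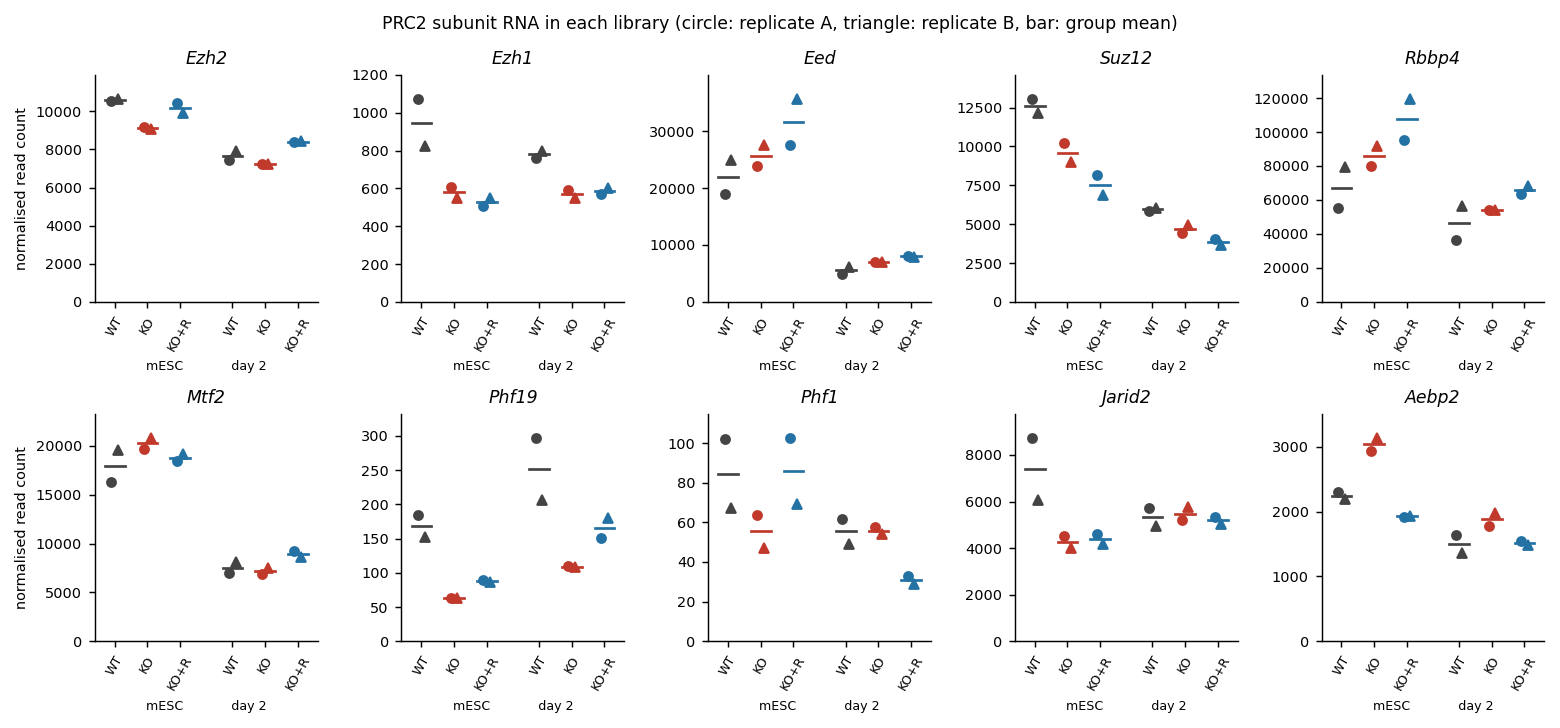
Normalised read counts (vertical axis, starting at 0) of the 10 PRC2 subunit genes in each of the 6 groups (horizontal axis), with a circle for replicate A, a triangle for replicate B and a bar at the mean. Eed, Suz12 and Mtf2 fall from mESC to day 2 in every genotype, and Phf19 is lowest in KO at both stages (63.6 in mESC and 109 at day 2, means of 2).

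Shares within each set of alternatives show which gene supplied most of its transcripts, and do not depend on how a library was scaled. Mtf2 accounted for 97.9% of the Polycomb-like transcripts per kilobase in WT mESC, 99.1% in KO and 98.6% in KO+Rescue, and for 94.6%, 96.7% and 97.1% at day 2. Phf19 supplied 1.19% ± 0.307 (SD, n = 2) in WT mESC against 0.397% ± 0.0163 in KO and 0.589% ± 0.0215 in KO+Rescue, and these shares rose to 4.09% ± 1.37, 1.87% ± 0.123 and 2.31% ± 0.400 at day 2. Ezh1 made up 6.59% ± 1.19 of the Ezh1 and Ezh2 transcripts per kilobase in WT mESC, 4.77% ± 0.296 in KO and 3.94% ± 0.367 in KO+Rescue. Among the PRC2.2 genes, Aebp2 made up 17.0% ± 3.13 of the Jarid2 and Aebp2 transcripts in WT mESC, 31.9% ± 2.92 in KO and 22.4% ± 1.33 in KO+Rescue, and 15.5% ± 0.407, 18.3% ± 0.0613 and 16.0% ± 0.215 at day 2. Of all these groups, KO mESC thus had the lowest share of Phf19 and the highest share of Aebp2. The values depend on the length assigned to each gene, and with the longest transcript the Aebp2 share became 27.4%, 46.4% and 34.8% in the 3 genotypes of mESC.

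The first comparison asked which subunit genes differed between KO and WT mESC. Phf19, Jarid2 and Ezh1 were lower in KO and Aebp2 was higher, while the genes of the most abundant subunits, Ezh2, Eed, Rbbp4 and Mtf2, did not pass the test. In all, 4 of the 10 subunit genes were called (limma, adjusted p under 0.05), 1 higher and 3 lower, against 9.48% of all genes tested. The median log2 fold change of the 10 genes was −0.30, and that of all genes tested was −0.04. Fewer of the 10 genes were called on leaving out WT replicate A or KO replicate B, and so were fewer of all genes tested. The median log2 fold change of the 10 genes was then −0.25 and −0.26, in that order.

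Phf19, a Polycomb-like gene whose protein binds CpG-rich DNA and methylated lysine 36 of histone H3, had the largest fold change of the 10. Its normalised counts in replicates A and B were 185 and 152 in WT mESC and 63.9 and 63.4 in KO mESC, from 156 and 149 reads and from 57 and 47 reads. Both KO libraries lay below both WT libraries. The level was 2.61-fold lower in KO (log2 fold change −1.38 ± 0.23 (SE), limma adjusted p = 0.00316, 95% interval −1.88 to −0.89). The call held in 15 of 16 alternative settings and was lost when only these 2 groups were fitted (adjusted p = 0.0546).

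Jarid2, whose protein recruits PRC2.2 and stimulates its enzyme, had 8721 and 6056 normalised counts in WT mESC and 4537 and 3993 in KO mESC. Its WT replicates lay well apart, but both were above both KO libraries. The difference was −0.77 ± 0.16 on the log2 scale, or 1.71-fold lower in KO (limma adjusted p = 0.0116). It was no longer called without WT replicate A (−0.51, adjusted p = 0.101), without KO replicate B (−0.68, adjusted p = 0.124) or with only these groups fitted (adjusted p = 0.100).

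Ezh1 encodes the catalytic subunit that prevails in cells that divide little. It had 1073 and 823 normalised counts in WT mESC and 610 and 549 in KO mESC, with no overlap. The level was 1.62-fold lower in KO (log2 fold change −0.70 ± 0.15 (SE), limma adjusted p = 0.0134), and it was not called on leaving out WT replicate A (−0.51, adjusted p = 0.123) or KO replicate B (−0.62, adjusted p = 0.136), or with only these groups fitted (adjusted p = 0.108). Ezh2, the main catalytic gene of dividing cells, had 10546 and 10646 normalised counts in WT and 9177 and 9065 in KO. These did not overlap either, but the difference of −0.22 ± 0.11 did not pass (limma adjusted p = 0.203).

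Aebp2, a zinc finger gene of PRC2.2, had 2301 and 2191 normalised counts in WT mESC and 2940 and 3131 in KO mESC. It was the subunit gene that rose, by 1.35-fold (log2 fold change 0.43 ± 0.12 (SE), limma adjusted p = 0.0449), and this was the least stable of the calls: it held in 6 of 16 alternative settings. The adjusted p was 0.0709 to 0.287 when any 1 of the 4 libraries was left out, and the change fell to 0.22 (adjusted p = 0.385) when libraries were scaled to equal totals.

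The core genes gave smaller differences. Suz12 had 13061 and 12143 normalised counts in WT mESC and 10196 and 9013 in KO mESC, which did not overlap, and its difference of −0.39 ± 0.13 did not pass (limma adjusted p = 0.0725). DESeq2 on the recovered reads called it (adjusted p = 0.0416). Eed had overlapping libraries, 18992 and 24871 in WT against 23910 and 27490 in KO, and a difference of 0.24 ± 0.17 (limma adjusted p = 0.355). Rbbp4 had 55463 and 79205 in WT and 80169.5 and 91604.5 in KO, just apart, and its 0.37 ± 0.23 did not pass (adjusted p = 0.293). Mtf2 (0.18 ± 0.13, adjusted p = 0.374) and Phf1 (−0.58 ± 0.32, adjusted p = 0.232) were not called.

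At day 2 the same comparison left Phf19 as the only subunit gene called, 1 of 10 against 5.21% of all genes tested. Phf19 had 297 and 206 normalised counts in WT at day 2 and 109 and 108 in KO, with no overlap, and was 2.26-fold lower in KO (log2 fold change −1.18 ± 0.23 (SE), limma adjusted p = 0.00934). It was not called without WT day 2 replicate A (−0.92, adjusted p = 0.0862), without KO replicate A (adjusted p = 0.078), without KO replicate B (adjusted p = 0.0865) and with only these groups fitted (adjusted p = 0.0514). Ezh1 had 763 and 796 normalised counts in WT and 590 and 549 in KO, and its difference of −0.45 ± 0.15 did not pass (limma adjusted p = 0.116). Jarid2 had 5737 and 4957 in WT and 5221 and 5746 in KO, overlapping values with a difference of 0.04 ± 0.16 (95% interval −0.31 to 0.39). Aebp2 was at 0.33 ± 0.12 (adjusted p = 0.168) and the other 6 genes had adjusted p from 0.165 to 0.989. The median over the 10 genes was −0.02, beside 0.02 for all genes tested.

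Whether the effect of the KO differed between the stages was tested directly as the difference of both contrasts. No subunit gene was called by limma, beside 1.13% of all genes tested. edgeR called 0 and DESeq2 called 1. That gene was Jarid2, lower in KO in mESC and at 0.04 at day 2, with a difference of 0.81 ± 0.23 on the log2 scale (95% interval 0.32 to 1.30, limma adjusted p = 0.132, DESeq2 adjusted p = 0.0373). For Phf19 the effects at both stages differed by 0.21 ± 0.32 (limma adjusted p = 0.824).

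**Figure D2:**
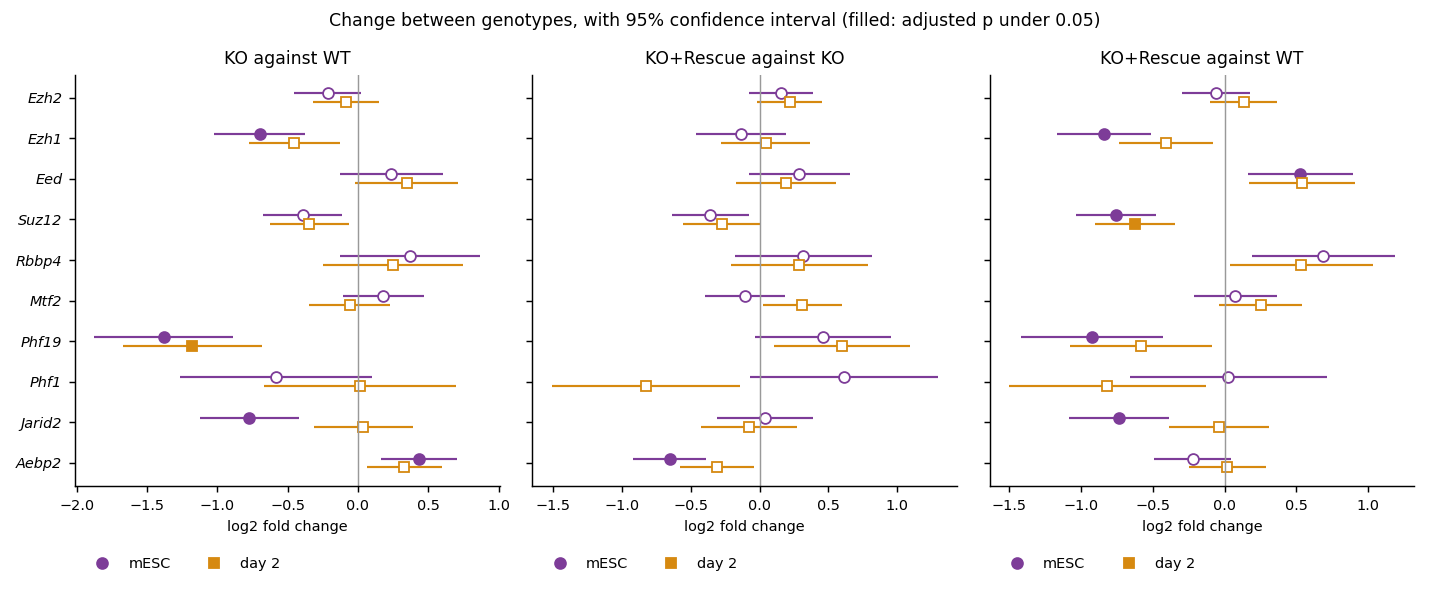
Log2 fold changes of the 10 PRC2 subunit genes between genotypes (horizontal axis), in a panel each for KO over WT, the rescued line over KO, and the rescued line over WT, with purple circles for mESC, orange squares for day 2, bars for 95% intervals and filled symbols for genes called by limma. Phf19 lies left of 0 in KO against WT at both stages (−1.38 and −1.18). Aebp2 changes sides in mESC between the first panels (0.43 and −0.65), which share the KO libraries.

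In KO against WT mESC, Ezh1 and Suz12 had log2 fold changes below 0, as did most of the tested genes around them. Both lie on chromosome 11, Suz12 at chr11:79993106-80034123 and Ezh1 at chr11:101191115-101226463 in the GRCm38.p6 annotation. In KO against WT mESC the median log2 fold change of the 208 tested genes within 5 Mb of Ezh1 was −0.42, with 80.3% of them below 0, and that of the 131 genes within 5 Mb of Suz12 was −0.32, with 74.0% below 0. The 1199 tested genes of chromosome 11 had a median of −0.27, against −0.03 for all other chromosomes. Ezh1 and Suz12 were therefore not far from their surroundings: 28.4% of the genes near Ezh1 and 45.0% of those near Suz12 had a lower value than the subunit gene. At day 2 these medians were −0.25 near Ezh1 and −0.21 near Suz12, and −0.17 over chromosome 11 against 0.03 over all others.

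Phf19, Jarid2 and Aebp2, called in KO mESC as Ezh1 was, had surroundings with medians near 0. They were called on this same contrast, so their distance from these medians is no separate result. The 120 tested genes around Phf19 (chr2:34893752-34914353) had a median of −0.04, and 0.833% of them were lower than Phf19. Around Jarid2 (chr13:44730774-44921643) the median over 54 genes was 0.02 with 3.70% lower than Jarid2, and around Aebp2 (chr6:140622454-140678472) it was 0.02 over 28 genes. KO+Rescue mESC, derived from the KO line, had medians of −0.41 near Ezh1 and −0.35 near Suz12 against WT, and 0.03 and −0.01 against KO. Ezh1 itself was at −0.84 against WT and −0.14 against KO. Suz12 was at −0.75 against WT and at −0.36 against KO (limma adjusted p = 0.222), further from 0 than its surroundings in both. The part of the chromosome-wide difference in the values of Ezh1 and Suz12 was not tested.

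**Figure D3:**
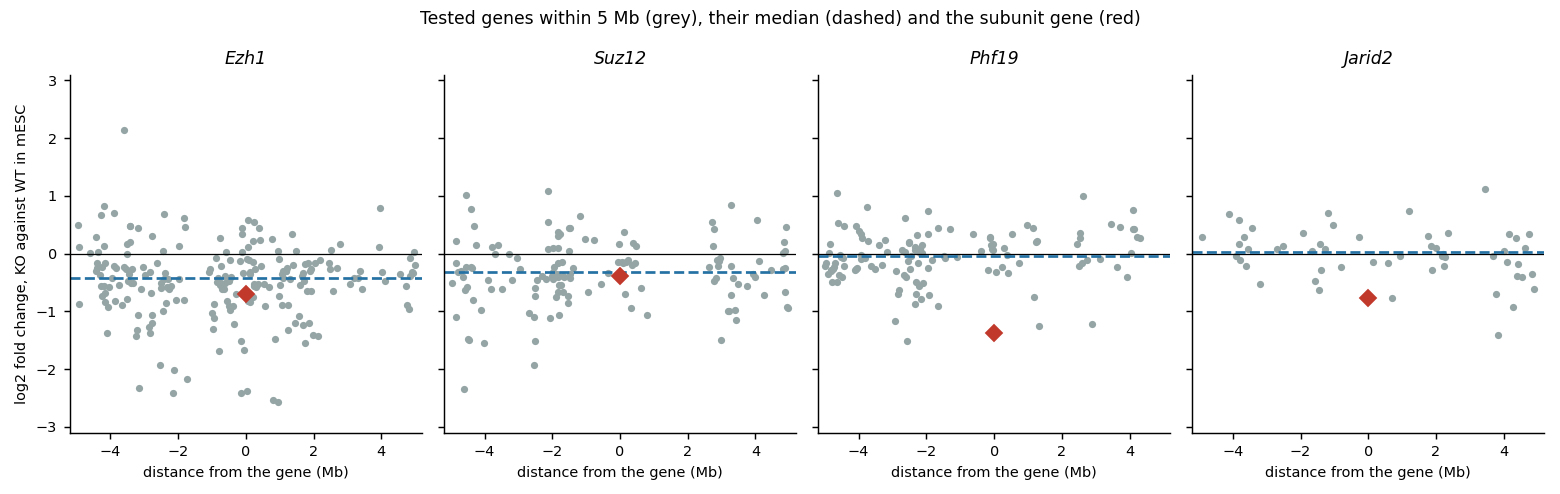
Log2 fold change between KO and WT mESC (vertical axis) of tested genes against their distance from Ezh1, Suz12, Phf19 and Jarid2 (horizontal axis, in Mb), with the subunit gene as a red diamond and the median of the neighbours as a dashed line. The median lies at −0.42 around Ezh1 and −0.32 around Suz12, and at −0.04 and 0.02 around Phf19 and Jarid2.

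Re-expression of Proser1 in the KO line was compared with the KO to ask which of these levels moved back. In mESC Aebp2 was the only subunit gene called, 1 of 10 against 1.51% of all genes tested. It had 2940 and 3131 normalised counts in KO and 1918 and 1938 in KO+Rescue, with no overlap, and was 1.57-fold lower in KO+Rescue (log2 fold change −0.65 ± 0.12 (SE), limma adjusted p = 0.0217). The call held in 10 of 16 alternative settings, and the adjusted p was 0.0854 to 0.167 when any 1 of the 4 libraries was left out. KO against WT and KO+Rescue against KO share the KO libraries with opposite signs. For Aebp2, as for any gene, their values are therefore not separate support. Against WT, Aebp2 in KO+Rescue was at −0.22 (adjusted p = 0.223), so its mean level in KO lay above that in both other genotypes. The summed level of 6 trophoblast markers ran the same way, 2738 to 2850 in WT mESC, 3639 to 3863 in KO mESC and 2858 to 2976 in KO+Rescue mESC. That of 6 primitive endoderm markers was also highest in KO mESC, at 72.8 to 78.4 against 29.5 to 58.1 in WT and 41.8 to 49.9 in KO+Rescue. At day 2 the trophoblast sum was not raised in KO (3684 to 3947, against 3879 to 4300 in WT). The primitive endoderm sum stayed highest in KO at day 2, at 230 to 236. It was 181 to 199 in WT and 172 to 195 in KO+Rescue. In mESC these endoderm levels were low, with 1 to 3 of the 6 genes at a mean of at least 10 per group. The part of either marker set in the Aebp2 values was not tested.

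Phf19 had 88.9 and 87.3 normalised counts in KO+Rescue mESC, above both KO libraries and below both WT libraries. Its difference from KO, 0.46 ± 0.23, did not pass (limma adjusted p = 0.412, 95% interval −0.03 to 0.96). Jarid2 had 4591 and 4164 in KO+Rescue mESC, overlapping the KO libraries, with a difference from KO of 0.04 (adjusted p = 0.940). Ezh1 had 505 and 548.5, just below the lower KO library at 548.999, with a difference of −0.14 (adjusted p = 0.734). The KO+Rescue libraries of both genes lay below both WT libraries.

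At day 2, KO+Rescue against KO gave no called subunit gene with limma, beside 1.83% of all genes tested. With edgeR and DESeq2 the number called was also 0. The smallest p-values among the 10 were those of Phf19, with 151 and 180 normalised counts in KO+Rescue against 109 and 108 in KO (0.60 ± 0.23, limma adjusted p = 0.204), Phf1 (−0.83 ± 0.32, adjusted p = 0.203), Aebp2 (−0.31, adjusted p = 0.222) and Mtf2 (0.31, adjusted p = 0.260). Phf1 rested on 28 and 31 reads in KO+Rescue at day 2. The effect of the rescue did not differ between stages for any subunit gene by limma, edgeR or DESeq2 (0 called, beside 0.0847% of all genes tested by limma). Phf1 showed the largest difference between stages, −1.44 ± 0.45 (limma adjusted p = 0.318).

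Set against WT, KO+Rescue mESC had lower levels of 4 subunit genes and a higher level of 1. Of these, Suz12 and Eed were not called by limma in KO against WT mESC. The 5 of 10 called compare with 18.2% of all genes tested. These contrasts share the WT libraries with those of the KO, so their values are given beside them and not as separate support. Ezh1 was 1.78-fold lower (−0.84 ± 0.15, limma adjusted p = 0.00683), Jarid2 1.66-fold (−0.73 ± 0.16, adjusted p = 0.0141) and Phf19 1.89-fold (−0.92 ± 0.23, adjusted p = 0.0211). Suz12 had 8136 and 6858 normalised counts in KO+Rescue mESC, below the 4 libraries of the other genotypes, and was 1.69-fold below WT (−0.75 ± 0.13, adjusted p = 0.00534). Without KO+Rescue replicate B, the adjusted p was 0.131 for Jarid2, 0.14 for Phf19 and 0.0601 for Suz12, and without WT replicate A it was 0.122 for Jarid2, 0.159 for Phf19 and 0.0616 for Ezh1. Leaving out either library left 1 of the 10 genes called.

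Eed and Rbbp4 were on the other side. Eed had 27480 and 35657 normalised counts in KO+Rescue mESC against 18992 and 24871 in WT, 1.44-fold higher (0.53 ± 0.17, limma adjusted p = 0.0478), and the adjusted p rose to 0.336 on dropping WT replicate A and to 0.357 on dropping KO+Rescue replicate B. Rbbp4, with 95259 and 119480 against 55463 and 79205, did not pass (0.69 ± 0.23, adjusted p = 0.0551). At day 2, 1 of 10 genes was called against 11.1% of all genes tested: Suz12, with 4057 and 3679 normalised counts in KO+Rescue and 5851 and 6046 in WT, was 1.54-fold lower (−0.62 ± 0.13, limma adjusted p = 0.0103), a call lost without KO+Rescue replicate A (adjusted p = 0.0507) or B (adjusted p = 0.11). Eed at day 2 was at 0.54 ± 0.17 (adjusted p = 0.0585).

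The share of reads in ribosomal protein genes, a simple measure of library composition, moved with several of these values. In replicates A and B it was 11.9% and 14.9% in WT mESC, 16.3% and 18.6% in KO mESC, and 17.3% and 22.2% in KO+Rescue mESC, and at day 2, in the same order, it was 11.5% and 14.7%, 15.4% and 15.5%, and 16.5% and 18.1%. Of the 15 pairs of mESC libraries, 14 were ordered the same way by this share and by Rbbp4, and likewise 14 by Eed, while 14 were ordered the opposite way by Suz12, 13 by Ezh1, 13 by Jarid2 and 12 by Phf19. Of the 15 pairs at day 2, 12 were ordered the same way by Rbbp4 and 13 by Eed. The opposite order was found for 13 with Suz12, 10 with Ezh1, 8 with Jarid2 and 10 with Phf19. Ezh2 had the same order in 4 pairs of mESC and in 11 at day 2. With the share as a covariate, an alternative chosen after seeing the data, limma called 0 of the 10 genes in KO+Rescue against WT mESC, and the difference of Eed became −0.02. Without the covariate edgeR called 4 and DESeq2 6. The share did not overlap between WT mESC and the mESC of either other genotype, so share and genotype cannot be told apart there. Phf19, Jarid2, Ezh1 and Aebp2 kept their calls in KO against WT mESC under that covariate, beside 5.53% of all genes tested.

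**Figure D4:**
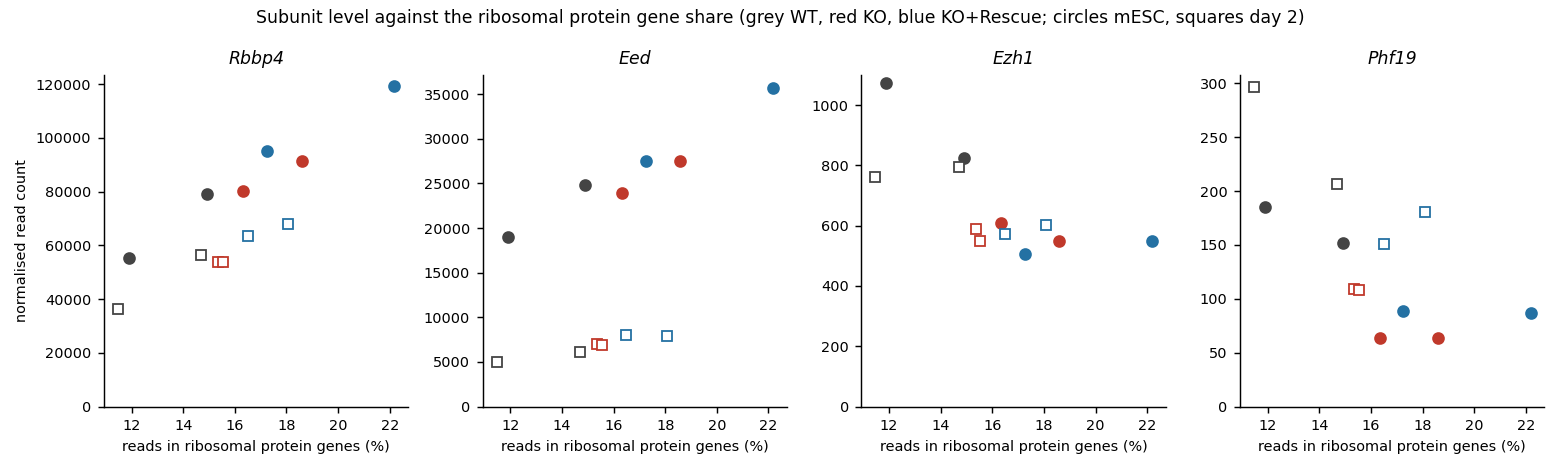
Normalised read counts of Rbbp4, Eed, Ezh1 and Phf19 (vertical axes) against the percentage of reads in ribosomal protein genes (horizontal axis) for the 12 libraries, in grey for WT, red for KO and blue for KO+Rescue, with circles for mESC and squares for day 2. Among mESC libraries Rbbp4 and Eed are higher where the share is higher, which runs from 11.9% to 22.2%, and Ezh1 is lower.

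More of the subunit genes were called between the stages than between genotypes at 1 stage. In WT cells 6 of the 10 genes fell from mESC to day 2 and none rose, in KO 6 fell and 1 rose, and in KO+Rescue 7 fell and 1 rose. These counts stand beside 51.9%, 60.1% and 58.2% of all genes tested, so the number called was not far from that of other genes, but its direction was uneven: the median of the 10 genes was −0.56, −0.50 and −0.52, against −0.02, 0.02 and −0.03 for all genes. The largest falls in WT and KO were those of Eed, Mtf2 and Suz12, which were called in each genotype under all 16 alternative settings, and in KO+Rescue Phf1 fell further than Mtf2 and Suz12.

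Eed fell from 18992 and 24871 normalised counts in WT mESC to 4952 and 6096 at day 2, 3.96-fold (−1.98 ± 0.17, limma adjusted p = 8.54e-07). It fell 3.67-fold in KO, to 7056 and 6930, and 3.92-fold in KO+Rescue, to 8040 and 7919. Suz12 fell from 13061 and 12143 to 5851 and 6046 in WT, 2.12-fold (−1.08 ± 0.13, adjusted p = 1.62e-05), and by 2.05-fold in KO and 1.93-fold in KO+Rescue. Every day 2 library of both core genes was below every mESC library of its own genotype.

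Mtf2, the prevailing Polycomb-like gene, fell from 16336 and 19557 normalised counts to 6980.1 and 8079 in WT, 2.38-fold (−1.25 ± 0.13, limma adjusted p = 5.96e-06), 2.81-fold in KO and 2.10-fold in KO+Rescue. Phf19 moved the other way. It rose 1.70-fold in KO (0.77 ± 0.23, limma adjusted p = 0.0111) and 1.87-fold in KO+Rescue (0.90 ± 0.23, adjusted p = 0.00447). In WT its 0.56 ± 0.23 did not pass (limma adjusted p = 0.0548), and 7 of 16 alternative settings called it. The changes in KO and WT differed by 0.21 ± 0.32 (limma adjusted p = 0.824). The rise in KO was not called without KO day 2 replicate A (adjusted p = 0.0527). Phf1 fell 2.67-fold in KO+Rescue, from 102 and 69.5 to 32.9 and 29.1 (−1.42 ± 0.32, adjusted p = 0.00189), and was not called in WT (−0.58, adjusted p = 0.143) or KO (0.02).

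Ezh2 fell by less, from 10546 and 10646 normalised counts to 7423 and 7913 in WT (1.38-fold, −0.47 ± 0.11, limma adjusted p = 0.00298). Its changes of −0.34 in KO (adjusted p = 0.0168) and −0.27 in KO+Rescue (adjusted p = 0.0455) were called but became 0.00 and 0.09 when libraries were scaled to equal totals, a scaling that moved the median of all genes to 0.35 and 0.34. The KO call was also lost when any 1 of its 4 libraries was left out (adjusted p = 0.0724 to 0.0854), and the KO+Rescue call held in only 6 of 16 alternative settings, being lost with TMM scaling (adjusted p = 0.127), edgeR (0.152) and any 1 library left out (0.0714 to 0.154). Ezh1 was not called in WT (−0.27, adjusted p = 0.149), KO (−0.02) or KO+Rescue (0.16). At day 2 the share of Ezh1 in the catalytic transcripts per kilobase was 7.425% ± 0.106 (SD, n = 2) for WT, 5.86% ± 0.285 for KO and 5.22% ± 0.141 for KO+Rescue.

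Aebp2 fell in the 3 genotypes (−0.59, −0.69 and −0.35, limma adjusted p = 0.00151, 0.000367 and 0.0277). None of these calls held with equal library totals, where the KO+Rescue change was 0.02. The WT and KO calls held in 15 of 16 alternative settings, and the KO+Rescue call in 9 of 16. The latter was also lost with TMM scaling (limma adjusted p = 0.0605), with edgeR (adjusted p = 0.0650) and with any 1 of its libraries left out. Jarid2 fell in WT only by the main test, from 8721 and 6056 normalised counts to 5737 and 4957 (−0.45 ± 0.16, adjusted p = 0.0335). That call was lost without WT mESC replicate A (−0.18, adjusted p = 0.324) and without WT day 2 replicate B (adjusted p = 0.146), and the changes in KO (0.36, adjusted p = 0.0676) and KO+Rescue (0.25, adjusted p = 0.200) did not pass. Rbbp4 fell in KO (−0.67, adjusted p = 0.0234) and KO+Rescue (−0.70, adjusted p = 0.0197), and in WT its 55463 and 79205 normalised counts in mESC overlapped the 36500.4 and 56464 at day 2 (−0.55, adjusted p = 0.0629). The Rbbp4 calls held in 11 of 16 alternative settings in KO and 12 of 16 in KO+Rescue, and in WT 7 of 16 settings called it. They were lost with equal library totals (adjusted p = 0.0942 and 0.0954), without mESC replicate B (0.134 in KO and 0.130 in KO+Rescue) and without day 2 replicate A (0.0907 and 0.102) or B (0.0894 and 0.0618).

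**Figure D5:**
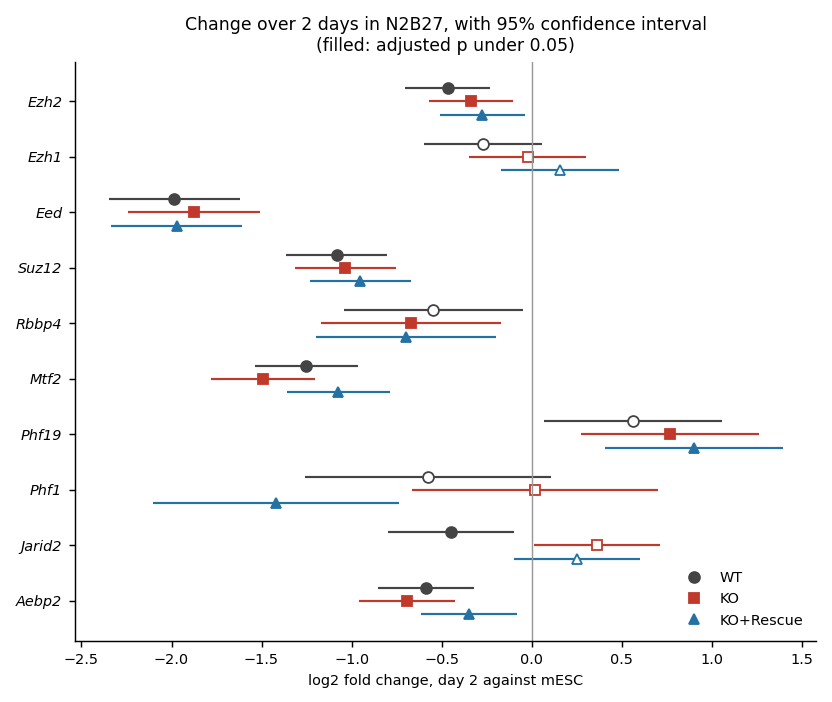
Log2 fold changes of the 10 PRC2 subunit genes from mESC to day 2 (horizontal axis) in WT (black circles), KO (red squares) and KO+Rescue (blue triangles), with 95% intervals and filled symbols for genes called by limma. Eed, Mtf2 and Suz12 lie left of 0 in every genotype (−1.98, −1.25 and −1.08 in WT), and Phf19 lies right of 0.

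Promoter sequences are given for Eed and Suz12, the core genes that fell together from mESC to day 2, and for Jarid2 and Ezh1, whose 6 group means were closest to each other among all pairs of subunit genes. Each is the 250 bases before the gene's start on its own strand, from RefSeq on GRCm38.p6. Capitals mark matches, on either strand, to the letters searched: the E2F motifs TTTCCCGC and TTTGGCGC, the NFY motif CCAAT, the GC box GGGCGG, the CRE motif TGACGTCA, the ETS motif CCGGAAG and the YY1 motif CAAGATGGC. The Eed sequence lies at chr7:89980977-89981226 (minus strand), that of Suz12 at chr11:79992856-79993105 (plus), that of Jarid2, before the first of its annotated starts, at chr13:44730524-44730773 (plus) and that of Ezh1 at chr11:101226464-101226713 (minus).
Eed: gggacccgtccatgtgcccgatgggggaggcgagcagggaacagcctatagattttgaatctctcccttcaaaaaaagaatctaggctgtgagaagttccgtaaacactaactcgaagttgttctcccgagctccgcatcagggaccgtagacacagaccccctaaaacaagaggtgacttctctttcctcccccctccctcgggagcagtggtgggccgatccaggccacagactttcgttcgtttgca
Suz12: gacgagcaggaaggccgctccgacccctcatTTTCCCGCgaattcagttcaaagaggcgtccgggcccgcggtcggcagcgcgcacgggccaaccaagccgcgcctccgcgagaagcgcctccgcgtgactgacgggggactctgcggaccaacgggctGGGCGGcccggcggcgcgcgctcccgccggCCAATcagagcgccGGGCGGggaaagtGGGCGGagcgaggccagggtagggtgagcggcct
Jarid2: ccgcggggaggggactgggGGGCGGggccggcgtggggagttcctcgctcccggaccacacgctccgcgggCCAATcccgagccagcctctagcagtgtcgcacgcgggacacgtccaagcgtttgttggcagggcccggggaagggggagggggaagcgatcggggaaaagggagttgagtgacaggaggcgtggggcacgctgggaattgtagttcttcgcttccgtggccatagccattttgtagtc
Ezh1: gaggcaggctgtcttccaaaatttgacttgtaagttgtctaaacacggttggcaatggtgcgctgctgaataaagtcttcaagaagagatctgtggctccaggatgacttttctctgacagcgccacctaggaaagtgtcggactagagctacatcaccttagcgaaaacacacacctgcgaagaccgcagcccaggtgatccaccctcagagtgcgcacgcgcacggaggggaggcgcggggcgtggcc

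The Suz12 window held 1 TTTCCCGC, 1 CCAAT and 3 GGGCGG matches and 37 CpG sites, more than 97.8% of all 32851 promoters, whose median was 6. Eed and Ezh1, with 12 and 14 CpG sites, held none of the letters searched, so the core genes that fell together did not share a match. Jarid2 held CCAAT and GGGCGG. TTTCCCGC was found in 0.895% of all promoters and, among the subunit genes, also in that of Phf19 beside 4 GGGCGG matches, while CCAAT and GGGCGG were found in 33.8% and 32.7% of all promoters. No promoter window of the 10 genes held TTTGGCGC, TGACGTCA, CCGGAAG or CAAGATGGC, which are in 0.417%, 1.55%, 6.91% and 0.581% of all. The matches are a description of these letters and not evidence of binding.

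Likeness over the 6 group means, each centred on the gene's own mean on the log2 scale, was measured as a Euclidean distance. Among the subunit genes Ezh1 and Jarid2 were closest (0.399), then Ezh2 and Rbbp4 (0.700), and Eed and Phf19 were farthest apart (3.71). Among 12339 genes with a mean of at least 50 normalised counts, the nearest to Ezh2 were Zfp7 (0.0666) and Cpne3 (0.0880), and the nearest to Rbbp4 was Clns1a (0.0920). Mtf2 was nearest to Fam76a (0.104) and Dus2 (0.114), Ezh1 to Rufy1 (0.115) and Ankfy1 (0.195), and Aebp2 to Pfkfb2 (0.126) and Gabpa (0.250). Other subunit genes had more distant neighbours: Suz12 Dgka (0.174) and Ccpg1 (0.221), Jarid2 Prodh (0.187) and Rarg (0.210), Eed Gm14412 (0.271) and Zfp456 (0.279), Phf19 Coch (0.311) and Cngb1 (0.331), and Phf1 St6galnac6 (0.396) and Gm30785 (0.405). The patterns of Phf19 and Phf1, the genes with the fewest reads, thus had the most distant nearest neighbours.

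Genes whose products work beside PRC2 were read from lists drawn by function. Of 21 tested genes of PRC1, the complex that ubiquitinates histone H2A and binds the mark made by PRC2, 1 rose and 1 fell in KO against WT mESC: Bmi1, a subunit of canonical PRC1, rose (log2 fold change 1.15 ± 0.15 (SE), limma adjusted p = 0.000707), and its paralogue Pcgf2 fell (−0.79 ± 0.16, adjusted p = 0.00886). The median over the 21 was −0.01, against −0.04 for all genes tested, and 9.48% of all genes were called, so the count for PRC1 was near that of other genes. At day 2, where 5.21% of all genes were called, 2 PRC1 genes rose in KO, Bmi1 (1.08, adjusted p = 0.00110) and Bcorl1 (1.08, adjusted p = 0.0153), and Bmi1 fell in KO+Rescue against KO (−0.83, adjusted p = 0.0168). Of 17 E2F and S phase genes, 4 fell in KO against WT mESC and none rose, among them Top2a (−0.57, adjusted p = 0.0282), Cdc6 (−0.43, adjusted p = 0.0334) and E2f8 (−0.68, adjusted p = 0.0361), with a median of −0.20 over the list, beside 9.48% of all genes called. From mESC to day 2 in WT, 8 of these 17 fell and 1 rose, with E2f2 at −1.30 (adjusted p = 0.000144) and a list median of −0.48 against −0.02 for all genes, of which 51.9% were called, a share near that of the list.

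Of 8 other PRC2 cofactors tested, Skida1 rose in KO against WT at day 2 (1.27 ± 0.23, limma adjusted p = 0.00600), and in WT from mESC to day 2 Epop, which links PRC2.1 to elongin, fell (−1.54, adjusted p = 1.47e-05), while Ezhip, an inhibitor of the enzyme, rose (1.09, adjusted p = 0.00279), as did Lcorl (0.92, adjusted p = 0.00289). Kdm6b, which removes the methyl groups that PRC2 adds, rose in KO (1.28, adjusted p = 0.000222) and KO+Rescue (1.28, adjusted p = 0.000225) from mESC to day 2, and in WT it was called (0.54, adjusted p = 0.0494) although its libraries overlapped. Among 5 H3K36 methyltransferase genes, whose mark PRC2 does not favour, Whsc1 (0.55, adjusted p = 0.00765) and Whsc1l1 (0.43, adjusted p = 0.0339) rose and Setd2 (−0.54, adjusted p = 0.0130) fell in WT over the same step. Many genes were called between the stages: 51.9% of all tested for WT cells, 60.1% for the KO and 58.2% for the rescued line. In WT, 2 genes rose and 1 fell among the 8 cofactors, and likewise among the 5 methyltransferase genes. These WT counts do not set either list apart from other genes. Of the 8 cofactors, 2 rose and 5 fell in KO, and 3 rose and 4 fell in KO+Rescue. Of the 5 methyltransferase genes, 2 rose in KO and 1 in KO+Rescue, and none fell. Whether the lists differ from other genes in KO and KO+Rescue was not tested. For KO against WT at day 2, 5.21% of all genes were called, and Skida1 was the only cofactor called.

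Of 40 genes known to be silenced by Polycomb in mESC, 19 were tested, the rest lying under the filter. The filter takes the mean over all 12 libraries, so a gene silent in mESC could pass it through a high level in 1 group alone. Counts and medians of this list therefore describe genes chosen in part by the levels compared, and are no support for an effect on Polycomb targets. In KO against WT mESC 1 rose and 1 fell, against 9.48% of all genes called, with a median of −0.19 over the 19. The gene that fell was T, the mesoderm gene (−1.64, limma adjusted p = 0.00225). At day 2, where 5.21% of all genes were called, 5 rose in KO and 1 fell, and those that rose included Eomes (1.82, adjusted p = 0.000869) and T (1.30, adjusted p = 0.0108), with a median of 0.61 against 0.02 for all genes tested. In KO+Rescue against KO at day 2, Eomes (−2.31, adjusted p = 0.000628) and T (−1.84, adjusted p = 0.00326) fell. The effect of the KO differed between stages for 3 of the 19, beside 1.13% of all genes: T (2.94), Eomes (2.44) and Pax6 (2.26, adjusted p = 0.0311), each higher in KO at day 2 than in mESC relative to WT. Only Phf19 among the PRC2 subunit genes was called in KO at that stage.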

How the data were processed

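RNA was extracted with RNeasy and libraries made with the NEBNext Ultra II Directional kit. Per the methods and labels, the authors trimmed reads with Trimmomatic, aligned them with STAR to mm10, counted read pairs per RefSeq gene with featureCounts, removed reads of the Y chromosome and scaled with DESeq2. Versions and the strand setting are not given in the sources used here. The deposited values are a signal, counts divided by a size factor per library. Whole reads were recovered for all values (tolerance 0.001), and gave totals of 38634668 to 66450803. Columns named 39 and 39R were read as KO and KO+Rescue, which no label states outright. Unmapped columns numbered 0.

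The main test was limma 3.58.1 (R 4.3.3) with a trend on log2(normalised count + 1), for genes with a mean of at least 10, over all 12 libraries as 6 group means (6 residual degrees of freedom), two-sided, with Benjamini-Hochberg adjustment over 15341 genes and calls at adjusted p under 0.05. Fold changes on this scale understate changes of low genes. A fold is 2 to the power of the log2 change. The alternatives were edgeR 4.0.16 and DESeq2 1.42.0 on recovered reads (1434 and 2057 genes called in KO against WT mESC, against 1455 with limma), pseudocounts 0.5 and 5, filters, scalings, a replicate block and leaving out each library. The steps were tested on simulated data. Other tools were Python 3.11.15, pandas 2.3.3, numpy 2.4.6 and scipy 1.17.1.

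All 10 subunit genes are named in every comparison, with up to 3 called genes of the smallest adjusted p from each list, the 2 nearest patterns of each subunit gene, and Proser1. Some genes that this rule would name are not reported here. Subunit genes and lists were chosen with earlier results of these data known. Tceb1, Tceb2, E130012A19Rik, AU022751, Whsc1 and Whsc1l1 are the table's symbols for Eloc, Elob, Epop, Ezhip, Nsd2 and Nsd3. Lengths came from GENCODE vM39, and positions and promoters from RefSeq on GRCm38.p6, which placed 14501 genes (94.5%).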

Additional observations from a re-analysis of the deposited data

How the results depend on the processing

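With only its own groups in each fit, which leaves fewer libraries to estimate the spread, the number of subunit genes called went from 4 to 0 for KO against WT in mESC and from 1 to 0 at day 2, from 1 to 0 for KO+Rescue against KO in mESC and from 0 to 2 at day 2, and from 5 to 0 for KO+Rescue against WT in mESC. Without an intensity trend, KO+Rescue against KO in mESC gave 0 and KO+Rescue against WT in mESC gave 3. KO+Rescue against WT at day 2 gave 2 with TMM scaling, 2 with edgeR, 2 with DESeq2 and 3 with the replicate block. The stage dependence of KO against WT gave 1 (Jarid2) with the replicate block, with DESeq2 and with the ribosomal protein gene share as a covariate, and that covariate, added after seeing the data, gave 0 for KO+Rescue against WT in mESC and turned Eed there to −0.02 (−0.0153). Scaling to equal library totals moved the median of all genes from −0.04 to −0.25 in KO against WT mESC, with 235 genes higher and 1373 lower against 495 and 960, and turned the stage change of Ezh2 to 0.00 (0.0011) in KO and 0.09 (0.0944) in KO+Rescue and that of Aebp2 to 0.02 (0.0184) in KO+Rescue. The cause of these changes was not tested. Over all alternatives and subunit genes, 1703 values kept their side of the threshold, 91 lost a call, 42 gained one and 4 called values reversed; values that were not called, such as those of Eed and Rbbp4 in KO against WT mESC, also changed sign under some alternatives.

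Leaving out 1 library at a time gave 1 to 3 called subunit genes for KO against WT in mESC and 0 to 1 at day 2, 0 to 0 for KO+Rescue against KO at both stages, 1 to 6 for KO+Rescue against WT in mESC and 0 to 4 at day 2, 6 to 7, 4 to 6 and 5 to 6 from mESC to day 2 in WT, KO and KO+Rescue, and 0 to 1 and 0 to 0 for the stage dependence of KO and of KO+Rescue. From mESC to day 2, the 7 genes in KO became 4 without KO day 2 replicate A, and the 8 in KO+Rescue became 5 without mESC replicate B or either day 2 library; KO+Rescue against WT at day 2 reached 4 without WT replicate B. The lone library of a group was then taken to vary like the other groups.

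No label says that a replicate letter marks a shared batch, so the letters were not taken as a pairing in the main test. Deviations from the group means correlated over 0.1 in 6 of 15 pairs of groups (all pairs among WT mESC, WT day 2, KO mESC and KO+Rescue mESC), within a range of −0.048 to 0.413. In every group, replicate B also had the higher share of reads in ribosomal protein genes. Any difference shared by the A and B libraries stays in the spread of the main test, and was not tested. With the replicate block, 3657 genes were called in KO against WT mESC in place of 1455, and 5 subunit genes in place of 4, Suz12 being added (adjusted p = 0.0187). The block also called Rbbp4 in KO+Rescue against WT in mESC (adjusted p = 0.00294) and at day 2 (0.0180). The same count of genes was 181 with only those groups, 950 with no filter, 979 without a trend, 2057 with DESeq2 and 461 without WT replicate A.

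Each group had 2 libraries. Phf19 and Phf1 rested on few reads. The strand setting of the counting is not stated, so reads of Ezh2, Rbbp4 and Phf1 cannot be told apart from those of the genes that overlap them.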
